A study of Mus musculus with 9 samples.

Results

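The expression of 10 microglial genes was examined in explants of mouse retina cultured with or without 2-deoxy-D-glucose (2-DG), which is taken up like glucose but inhibits glycolysis. The genes were fixed by name: 3 that mark the resting (homeostatic) state of microglia (P2ry12, Tmem119 and Cx3cr1), the growth factor receptor gene Csf1r, 3 that are higher in activated microglia or take part in phagocytic signalling (Aif1, Trem2 and Tyrobp), and the 3 genes of complement component C1q (C1qa, C1qb and C1qc). These are 10 of the 55487 genes in the count table, and all 10 passed the filter on low counts that left 21049 genes for testing. The mice were wild type (C57Bl/6J) and 28 days old (postnatal day 28), and their retinas, freed of sclera and retinal pigment epithelium (RPE), were kept for 48 h in culture medium containing 5 mM glucose. The 5 control libraries come from explants with glucose alone and the 4 2-DG libraries from explants that also received 20 mM 2-DG. Total RNA of the whole explant was sequenced, so the microglia were neither sorted nor counted. The libraries are labelled as biological replicates of 1 batch, without saying whether they came from separate mice, so p-values measure the spread between these libraries. The comparison asked whether a block of glycolysis changes the expression of these genes.

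Microglia are the resident macrophages of the neural retina, where they lie mainly in the plexiform layers, survey synapses and clear debris. Their survival depends on signalling through the receptor encoded by Csf1r, whose ligands are the products of Csf1 and Il34. When microglia respond to injury or are placed in culture, transcripts of the homeostatic genes typically decline, while genes for phagocytosis and lipid handling are raised. C1q is the recognition molecule of the classical complement pathway. It is assembled from the A, B and C chains and in neural tissue is produced mainly by microglia.

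Libraries held between 11318087 and 51802230 estimated counts, and levels are given as CPM, counts scaled to a common total, on the library size scaled by the trimmed mean of M-values (TMM). The counting floor was set at 3 counts, which stands for between 0.0556 and 0.255 CPM depending on the depth of the library. Counts of single members ranged from 0 to 790, and 5 of 90 values (5.56%) lay under the floor. Some libraries stood apart. Control replicate 2 held rod markers (9 genes, summed) at 43100 CPM against 4990 to 16700 CPM elsewhere. In 2-DG replicate 3, 6 RPE markers summed to 183 CPM against 1.95 to 25.5 CPM in the others. Control replicates 4 and 5 and 2-DG replicate 4 had high cytokine genes, as described further on. The members are therefore given in each library, and results that rest on 2-DG replicate 3 are given with and without it.

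No difference between 2-DG and control explants was detected for any of the 10 genes. Adjusted p-values ranged from 0.745 to 0.986 (edgeR's quasi-likelihood test, Benjamini-Hochberg adjustment over the 21049 genes). No member had an unadjusted p under 0.05 either, against 1526 genes (7.25%) of all tested, and 0 (0%) of all tested genes passed the adjusted threshold by this test, while DESeq2's Wald test on the same genes called 284 and none of the 9 members to which it gave an adjusted p (P2ry12 received none). The groups overlapped for all 10 members, whereas 617 of the tested genes (2.93%) had groups that did not overlap. Log2 fold changes were above 0 for 8 members and below 0 for 2, with a median of 0.20 beside -0.01 for all genes tested. The tally depended on single libraries: it was 2 above and 8 below 0 without 2-DG replicate 3, 3 above and 6 below (of 9 tested) without control replicate 5, and 5 of each without control replicate 4. Standard errors ran from 0.47 to 1.12 on the log2 scale. In RNA of whole explants, fewer microglia and less RNA per microglial cell cannot be told apart.

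**Figure D1:**
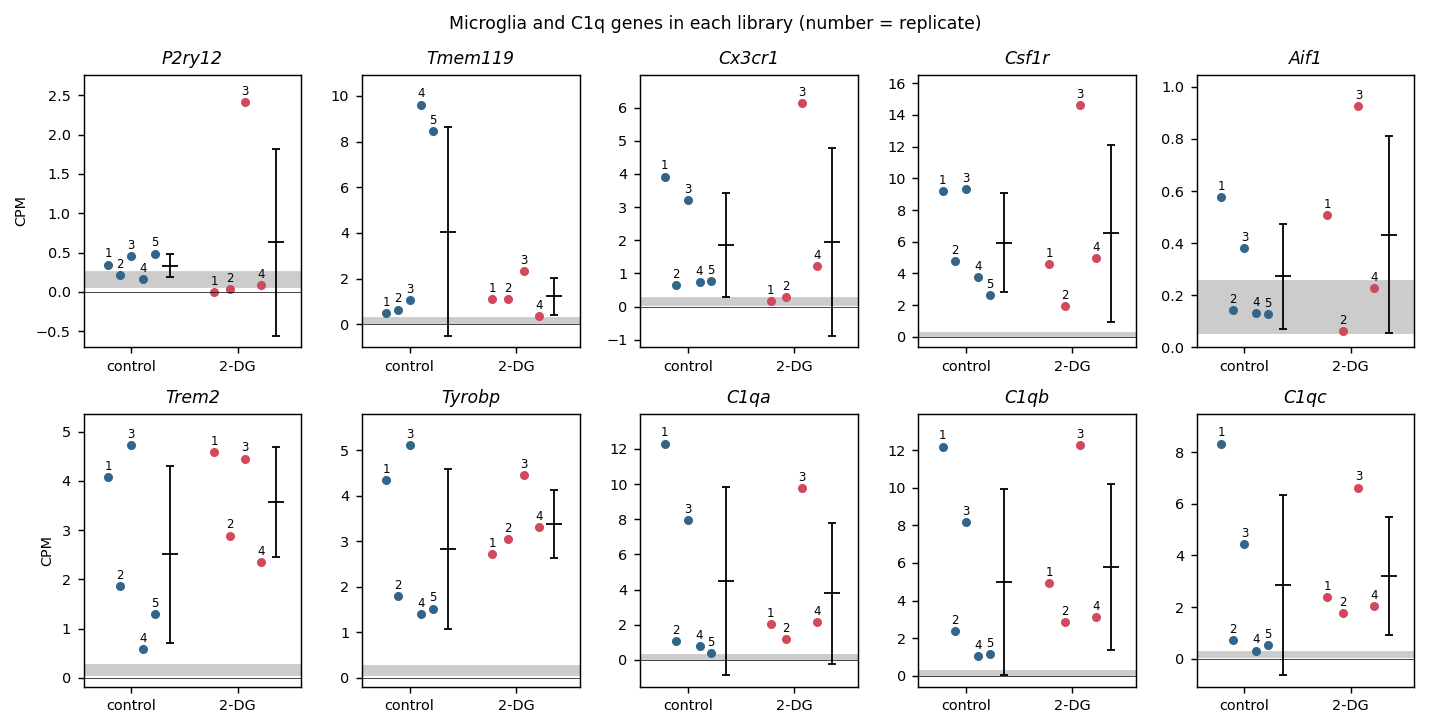
CPM of each of the 10 genes (y axis, linear, a separate scale per gene) in the 5 control (blue) and 4 2-DG (red) libraries. Numbers are replicate numbers, the black marks to the right of each group are the mean and SD (an SD bar that reaches below 0 reflects only the spread), and the grey band is the range of the counting floor, 0.0556 to 0.255 CPM. Control replicates 1 and 3 and 2-DG replicate 3 are high for most genes, whereas Tmem119 is high in control replicates 4 and 5.

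The homeostatic genes were sparse and uneven. P2ry12 encodes a receptor for ADP by which microglial processes sense injury, and lies at chr3:59216272-59262871 on the minus strand (GRCm38), within the region of Med12l on the opposite strand. Its level was 0.346, 0.215, 0.458, 0.158 and 0.485 CPM in control replicates 1 to 5. In 2-DG replicates 1 to 4 it was 0, 0.0311, 2.41 and 0.0858 CPM, on 0, 1, 130 and 3 counts. Thus 3 of the 4 2-DG libraries lay below every control library, and the fourth, 2-DG replicate 3, lay above every control library. The values of 2-DG replicates 1 and 2 were under the counting floor. That floor was 0.255 CPM in 2-DG replicate 1, above the levels of control replicates 2 and 4. The fitted log2 fold change was 1.02 ± 1.12 (SE, adjusted p = 0.854, edgeR). Without 2-DG replicate 3 it was -2.67 ± 0.77 (SE, edgeR's quasi-likelihood test, adjusted p = 0.747). The unadjusted p was then 0.00644 in edgeR's fit, in which 6.36% of genes had an unadjusted p under 0.05. The groups of P2ry12 then did not overlap, with 2-DG lower, as for 2.83% of all tested genes (5.84% in either direction), and the other 9 members still overlapped. That estimate rests on 4 counts in 3 2-DG libraries against 39 in the 5 control libraries. The ratio of the pooled levels, 2-DG over control, was 0.159, with an exact 95% interval of 0.0412 to 0.44 that covers counting error only.

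Cx3cr1 encodes the receptor for fractalkine, the neuronal chemokine encoded by Cx3cl1, and is annotated at chr9:119901616-120069879 on the minus strand. It reached 3.92, 0.644, 3.21, 0.738 and 0.775 CPM in control replicates 1 to 5 and 0.17, 0.28, 6.13 and 1.23 CPM in 2-DG replicates 1 to 4. As for P2ry12, the lowest levels belonged to 2-DG replicates 1 and 2 and the highest to 2-DG replicate 3. The value in 2-DG replicate 1 was under the counting floor, on 2 counts. The log2 fold change was 0.11 ± 0.98 (SE, adjusted p = 0.986, edgeR) with all libraries and -1.65 ± 0.90 (SE, adjusted p = 0.804, edgeR) without 2-DG replicate 3. On the transcript level, 260 of the Cx3cr1 counts of 2-DG replicate 3 were assigned to one coding transcript and 42.2 to another, whereas in control replicate 1 the former had 30.8 and the latter 71.1. How surely reads could be assigned to one or the other cannot be read from the estimated counts.

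Tmem119 encodes a membrane protein used to tell microglia from other macrophages, and lies at chr5:113793729-113800516 on the minus strand. In control replicates 1 to 5 it was found at 0.5, 0.644, 1.07, 9.62 and 8.47 CPM, and in 2-DG replicates 1 to 4 at 1.1, 1.09, 2.33 and 0.343 CPM. Control replicates 4 and 5 thus exceeded every other library, on deep counts, while they were among the lower libraries for the C1q genes and Csf1r. All 4 2-DG libraries lay below the control mean of 4.06 CPM, but 3 of them lay at or above each of control replicates 1 to 3. The log2 fold change of -1.74 ± 0.97 (SE, adjusted p = 0.745, edgeR) was the one farthest from 0 among the members. It did not pass the test under any of the alternatives tried. The estimate was -2.29 ± 1.14 (SE) without 2-DG replicate 3 and -1.16 without control replicate 4. With a block for replicate number it was -0.07 ± 1.15 (SE).

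Csf1r, the receptor tyrosine kinase gene of the macrophage lineage, is located at chr18:61100598-61132149 on the plus strand, where its end overlaps Hmgxb3 on the opposite strand. Its counts ran from 54 to 790, the latter in 2-DG replicate 3 and the highest of any member. In control replicates 1, 4 and 5 and 2-DG replicates 1 and 2, another member had more counts. Levels were 9.19, 4.8, 9.31, 3.77 and 2.62 CPM in control replicates 1 to 5 and 4.58, 1.96, 14.6 and 4.95 CPM in 2-DG replicates 1 to 4. Apart from 2-DG replicate 3, each 2-DG library was below the control mean. The log2 fold change was 0.15 ± 0.59 (SE, adjusted p = 0.962, edgeR) and became -0.63 ± 0.54 (SE, adjusted p = 0.841, edgeR) without that library.

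Among the activation genes, Aif1 encodes the actin-binding protein known as Iba1, the usual histological stain for microglia, and lies at chr17:35170991-35176068 on the minus strand. Its counts were low, from 2 to 15 outside 2-DG replicate 3. Levels were 0.577, 0.143, 0.382, 0.132 and 0.129 CPM in control replicates 1 to 5 and 0.509, 0.0622, 0.926 and 0.229 CPM in 2-DG replicates 1 to 4. Control replicate 2 and 2-DG replicate 2 each held 2 counts. The groups did not differ beyond the spread between libraries (log2 fold change 0.68 ± 0.76, SE, adjusted p = 0.855, edgeR). 2-DG replicate 3 held 50 counts, and without it the estimate was -0.15 ± 0.80 (SE, adjusted p = 0.975, edgeR).

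Trem2 encodes a receptor for lipids and apolipoproteins on phagocytic microglia and lies at chr17:48346401-48354147 on the plus strand. It was present at 4.08, 1.86, 4.73, 0.58 and 1.29 CPM in control replicates 1 to 5 and at 4.58, 2.89, 4.45 and 2.35 CPM in 2-DG replicates 1 to 4. Every 2-DG library exceeded control replicates 2, 4 and 5, and control replicates 1 and 3 were within the 2-DG range or above it. The log2 fold change was 0.51 ± 0.58 (SE, adjusted p = 0.857, edgeR), and it was 0.39 ± 0.66 (SE, adjusted p = 0.913, edgeR) without 2-DG replicate 3. Of the counts assigned to its transcripts, 47.1% went to a transcript annotated as a retained intron. Coding transcripts took 43.3, 20.0, 56.3, 0 and 8.93% of the transcript counts in control replicates 1 to 5 and 73.2, 60.6, 69.0 and 39.6% in 2-DG replicates 1 to 4. The level of the coding transcripts was 1.88, 0.301, 2.19, 0 and 0.084 CPM in the control libraries and 2.55, 1.51, 2.33 and 1.03 CPM in the 2-DG libraries. These groups overlapped through control replicates 1 and 3, and the shares were not tested.

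Tyrobp, at chr7:30413760-30417585 on the plus strand, encodes the adaptor DAP12 that passes on the signal of Trem2 and several other receptors. It was the steadiest member, with a 3.66-fold range over all libraries. Levels were 4.35, 1.79, 5.12, 1.4 and 1.52 CPM in control replicates 1 to 5 and 2.72, 3.05, 4.45 and 3.32 CPM in 2-DG replicates 1 to 4. All 4 2-DG values were above control replicates 2, 4 and 5 and below control replicate 3. The log2 fold change was 0.27 ± 0.47 (SE, adjusted p = 0.909, edgeR). The ratio of Trem2 to Tyrobp CPM was 0.415 to 1.04 in control and 0.707 to 1.69 in 2-DG libraries.

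**Figure D2:**
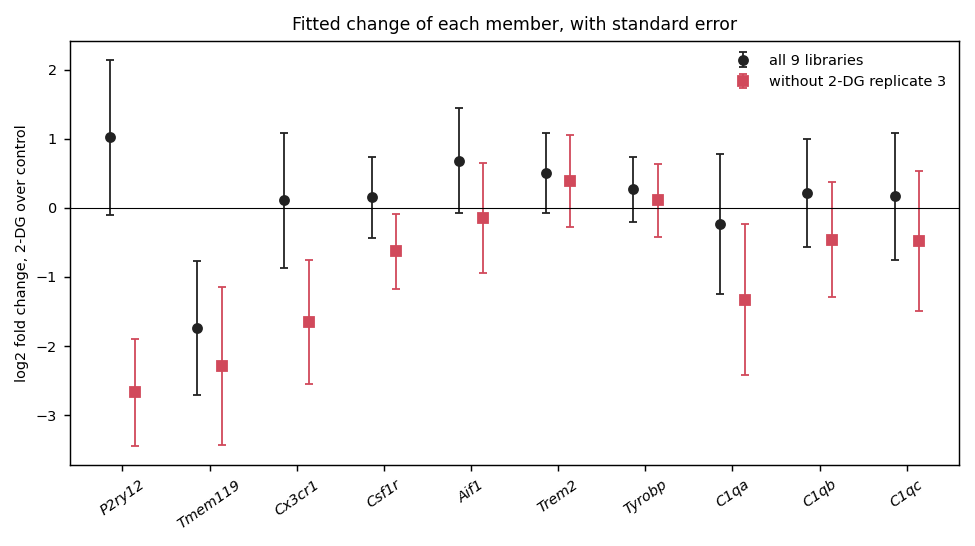
Log2 fold change of each gene, 2-DG over control (y axis), from edgeR's quasi-likelihood fit with all 9 libraries (black circles) and without 2-DG replicate 3 (red squares). Bars are 1 SE. With all libraries 8 of 10 estimates lie above 0, and without 2-DG replicate 3 only Trem2 and Tyrobp do.

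The C1q genes lie next to each other on chromosome 4, all on the minus strand: C1qa at chr4:136895917-136898803, C1qc at chr4:136889804-136893065 and C1qb at chr4:136880129-136886187. C1qa, the gene of the A chain, was found at 12.3, 1.07, 7.94, 0.764 and 0.388 CPM in control replicates 1 to 5 and at 2.04, 1.18, 9.75 and 2.14 CPM in 2-DG replicates 1 to 4. C1qb, which encodes the B chain, had 12.2, 2.36, 8.17, 1.05 and 1.16 CPM in the control libraries and 4.92, 2.83, 12.3 and 3.12 CPM in the 2-DG libraries. For C1qc, which encodes the C chain, the levels were 8.34, 0.716, 4.43, 0.316 and 0.517 CPM in control and 2.38, 1.77, 6.63 and 2.03 CPM with 2-DG. In each of the 3 genes, control replicates 1 and 3 and 2-DG replicate 3 formed the upper values. The remaining 3 2-DG libraries were all above control replicates 2, 4 and 5. From the lowest to the highest of the 9 libraries, C1qa varied 31.6-fold, C1qb 11.7-fold and C1qc 26.4-fold, with both ends among the control libraries for C1qa and C1qc.

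Log2 fold changes of the C1q genes were -0.23 ± 1.01 for C1qa, 0.22 ± 0.78 for C1qb and 0.17 ± 0.92 for C1qc (SE), with adjusted p-values of 0.965, 0.958 and 0.973 (edgeR). Without 2-DG replicate 3 they were -1.33, -0.46 and -0.48, and the adjusted p-values were 0.838, 0.918 and 0.929. The direction was also set by single control libraries, since without control replicate 1 the values were 0.61, 0.88 and 1.14. Per kilobase of exon, the median level over the 9 libraries was 1.96 CPM for C1qa, 2.87 CPM for C1qb and 1.05 CPM for C1qc, against 0.0844 CPM for P2ry12, 0.172 CPM for Cx3cr1 and 0.47 CPM for Tmem119. On that scale Tyrobp was the highest member (median 4.57 CPM per kilobase, range 2.09 to 7.67), C1qb ranged from 0.969 to 11.3, and the ranges of most neighbours in the order overlapped. Csf1r (median 0.831), Trem2 (0.585) and Aif1 (0.149) made up the rest.

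Over the 9 libraries, C1qb and C1qc had the highest Pearson's r of log2 CPM among pairs of members (0.98). C1qa and C1qb were next (0.97), and the order was not tested. Without 2-DG replicate 3 and control replicate 1, Tyrobp and C1qc were higher (0.97 against 0.96). The sequence just before C1qb and C1qc is shown because of their shared pattern. RefSeq promoter windows (GRCm38.p6) were at hand for 6 of the 10 members, and the part outside the annotated gene is printed, read on the gene's strand. Capitals mark the letters AGGAAGT or their reverse complement ACTTCCT, a core that is bound by ETS factors such as PU.1, the macrophage factor encoded by Spi1. C1qb is given for chr4:136886201-136886450 (minus strand) and C1qc for chr4:136893066-136893164 (minus strand).
C1qb: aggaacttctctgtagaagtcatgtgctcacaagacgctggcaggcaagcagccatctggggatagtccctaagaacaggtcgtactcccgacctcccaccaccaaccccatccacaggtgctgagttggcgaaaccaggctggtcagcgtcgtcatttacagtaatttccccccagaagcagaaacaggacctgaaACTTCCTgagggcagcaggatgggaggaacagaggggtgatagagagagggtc
C1qc: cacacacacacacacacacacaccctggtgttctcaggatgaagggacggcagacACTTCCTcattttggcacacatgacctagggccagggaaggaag
Searched on both strands over the 250 bases before the start, these letters occurred once each in the windows of C1qb, C1qc and P2ry12, but not in those of Cx3cr1, Aif1 and Trem2. They occurred in 7.69% of all 32851 windows of that length. A match is a run of letters and was not tested as a binding site.

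Across the 9 libraries, the levels of the C1q genes rose and fell together. Pearson's r of log2 CPM was 0.98 between C1qb and C1qc (Spearman's rho 0.98), 0.97 between C1qa and C1qb (rho 0.95) and 0.94 between C1qa and C1qc (rho 0.97). By an exact permutation test (two-sided, 45 pairs of members, Benjamini-Hochberg adjusted) the values for r were p = 2.76e-05 (adjusted 0.00124), 5.79e-05 (0.0013) and 0.000557 (0.00417). Those for rho were p = 4.96e-05 (adjusted 0.00223), 0.000353 (0.00529) and 0.000165 (0.00372), again by the exact permutation test. Leaving out the 2 libraries farthest from the median of the members (2-DG replicate 3 and control replicate 1) gave r of 0.96, 0.93 and 0.88. Together with Trem2 and Tyrobp, r lay between 0.77 and 0.98 over the 10 pairs of these 5 genes. In all, 19 of 45 pairs passed an adjusted p of 0.05 for r. All libraries share the scaling to 1 total, and each library's depth enters both genes of a pair.

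The homeostatic genes did not form such a group. P2ry12 and Cx3cr1 had r = 0.85 and rho = 0.78 (exact permutation p = 0.00324 and 0.0172, adjusted 0.0122 and 0.0431), which became r = 0.77 without the 2 farthest libraries. Tmem119, in contrast, had r of 0.27 with P2ry12 and -0.10 with Cx3cr1, and its r with the other 7 members lay between -0.64 and -0.24. Its most negative value, with Trem2, did not pass the test (r = -0.64, rho = -0.28, exact permutation p = 0.0604 and 0.463, adjusted 0.109 and 0.548).

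**Figure D3:**
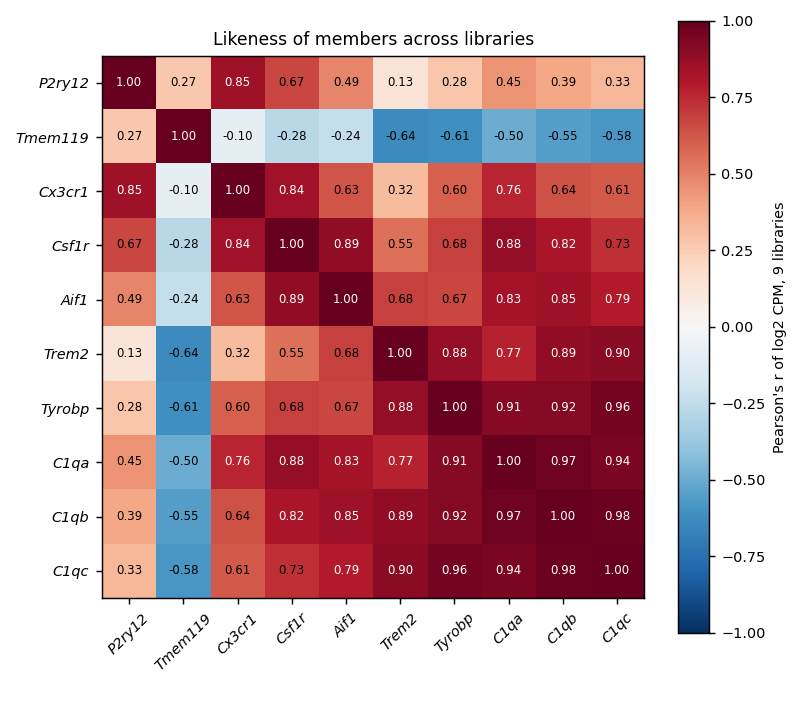
Pearson's r of log2 CPM over the 9 libraries for each pair of members (colour scale from -1, blue, to 1, red). The C1q genes with Tyrobp and Trem2 form a block of values from 0.77 to 0.98, and the row of Tmem119 holds values from -0.64 to 0.27.

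The genes outside the list with the most similar course were chosen by r with the mean of the standardised members over the 9 libraries. Ly86, which encodes the myeloid protein MD-1, came first (r = 0.965) with means of 0.918 CPM (control) and 1.19 CPM (2-DG). It is also among the further microglial genes counted in what follows. It was followed by Suox (r = 0.943), Gm45464 (0.933), 1600014C10Rik (0.93), Ttc33 (0.925), Grik3 (0.913), Tmed8 (0.905), Mon2 (0.898), BX649560.1 (0.896) and Dnah8 (0.894). These are the top values among all tested genes over 9 points and are given as a description.

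The homeostatic and the other members were set against each other within each library by the log2 ratio of their summed CPM, with 0.5 CPM added to each sum. Relative to the activation genes, the ratio was -0.85, -1.10, -1.04, 2.08 and 1.57 in control replicates 1 to 5, with a mean of 0.13 ± 1.56 (SD, n = 5). It was -2.23, -1.78, 0.14 and -1.57 in 2-DG replicates 1 to 4, with a mean of -1.36 ± 1.04 (SD, n = 4). The means differed by -1.49, beside SDs between libraries of 1.56 and 1.04, and the difference was not tested. Each 2-DG library apart from replicate 3 lay below all control libraries. The 2 positive control values were set by Tmem119, which made up 91.5% and 87.0% of the homeostatic sum in control replicates 4 and 5.

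With P2ry12 and Cx3cr1 alone in the sum, the control libraries were close to each other at -0.99, -1.66, -1.37, -0.90 and -0.97 (mean -1.18 ± 0.32, SD, n = 5). The 2-DG libraries were spread widely, at -3.63, -3.00, -0.19 and -1.82 (mean -2.16 ± 1.51, SD, n = 4). Here 2-DG replicates 1, 2 and 4 were again below every control library, and 2-DG replicate 3 above every one. Omitting Tmem119 was chosen after its values had been seen.

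Relative to the C1q genes, the ratio with all 3 homeostatic genes was -2.66, -1.22, -2.01, 2.06 and 1.99 in control replicates 1 to 5 and -2.47, -1.73, -1.36 and -1.85 in 2-DG replicates 1 to 4. The difference of the means was -1.49, and the groups overlapped. The 4 2-DG libraries stayed within a narrow range (SD 0.46), and the control libraries split into replicates 1 to 3 at or near the 2-DG values and replicates 4 and 5 far above them (SD 2.24). Without Tmem119 this contrast was gone, with SDs of 0.94 in control and 0.97 in 2-DG libraries and a difference of the means of -0.98. The control libraries were then at -2.80, -1.78, -2.34, -0.92 and -0.54, and the 2-DG libraries at -3.88, -2.95, -1.69 and -2.10, so that 2-DG replicates 1 and 2 lay below every control library.

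**Figure D4:**
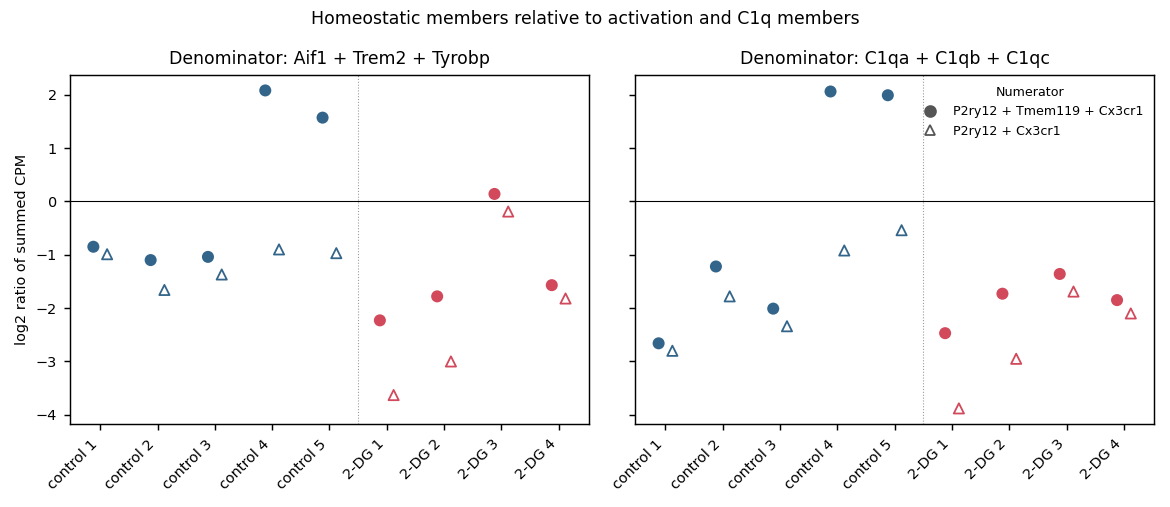
Log2 ratio of summed CPM (y axis) of the homeostatic genes to the activation genes (left) and to the C1q genes (right) in each library, control in blue and 2-DG in red. Filled circles use P2ry12, Tmem119 and Cx3cr1, and open triangles leave out Tmem119. On the left, 2-DG replicates 1, 2 and 4 lie below all control libraries, and on the right the groups overlap.

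Markers of other cells were read in the same libraries. In 2-DG replicate 3, the library with the highest P2ry12, Cx3cr1, Csf1r, Aif1 and C1qb, the RPE genes Rpe65, Ttr, Pmel, Tyrp1 and Rgr reached 6.67, 49.0, 62.3, 39.5 and 25.0 CPM. In the other 8 libraries Rpe65, the retinoid isomerase gene, was at most 0.315 CPM and Pmel, a melanosome gene, at most 4.2 CPM. Of the 6 RPE markers, Best1 alone was not raised there (0.704 CPM against 0.17 to 1.31 CPM). Control replicates 1 and 3, which had high C1q levels as well, had RPE sums of 6.46 and 6.18 CPM. Glial markers (Muller glia and astrocytes) went both ways in 2-DG replicate 3. Gfap and Aqp4 were highest there, at 144 and 67.3 CPM, as were Kcnj10, Apoe, Dkk3 and Slc39a12. Rlbp1, Glul, Slc1a3, Clu, Car2, Aldh1l1, S100b and Pax2 were not highest there, and Sox9 was at its lowest. The part of any of these cells in the levels of the members was not tested.

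Border macrophages and monocytes also express several of the members. Their 16 markers summed to between 182 and 458 CPM in control and between 174 and 544 CPM with 2-DG, mostly from Fn1 and Stab1, which vessels share. The defining markers Cd163 and Mrc1 were at or under 1.15 and 1.52 CPM in every library, with the highest Mrc1 in 2-DG replicate 3. Their control means (0.667 and 0.606 CPM) were nonetheless above those of P2ry12 and Aif1 (0.332 and 0.273 CPM). Pf4 was at 0.519 to 3.31 CPM, highest in control replicate 1. Lyve1 was at 7.38 to 45.3 CPM. It was highest in control replicates 4 and 5 and 2-DG replicate 4 (32.5, 36.3 and 45.3 CPM), and which cells it came from was not tested. Neutrophil markers summed to 0.498 to 1.74 CPM over 8 genes, with S100a9 at 0 in all libraries. The highest were Mpo and Ngp, at up to 1.36 and 1.15 CPM. Lymphocyte markers summed to 3.56 to 7.21 CPM over 13 genes, and Cd3e was at 0 in all but 2-DG replicate 4. By the same edgeR test, 0 of 9 rod, 3 of 10 Muller glia (all lower with 2-DG), 1 of 4 astrocyte, 0 of 8 vessel, 3 of 5 RPE and 1 of 10 proliferation genes tested had an unadjusted p under 0.05, beside 7.25% of all genes, and none passed the adjusted threshold. The mast cell genes Cpa3 and Mcpt4 were at 0 outside 2-DG replicate 3, and the sum of that list (34.7 to 714 CPM) came almost wholly from Kit, which retinal and vascular cells also express, and Hdc.

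No group difference was detected either for other genes that microglia express, not all of which are particular to microglia. Of 38 further genes expressed by microglia, 35 were tested, none passed the adjusted threshold, and 3 (8.57%) had an unadjusted p under 0.05, beside 7.25% of all genes. Their median log2 fold change was 0.25. Some were far above the members in level, such as Bin1 and Mef2a with control means of 234 and 175 CPM. Which cells these transcripts came from was not tested. Genes named here were picked from those with the smallest p-values. Ctss, the lysosomal protease gene, ranged from 2.88 to 9.7 CPM in control and from 7.69 to 26.4 CPM with 2-DG (log2 fold change 1.19, adjusted p = 0.67, edgeR). Adgrg1 and Runx1 had log2 fold changes of 0.76 and -1.13 with adjusted p-values of 0.625 and 0.712 (edgeR).

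Of 36 genes of activated microglia, all were tested, 14 had estimates above and 22 below 0, and none passed the adjusted threshold, with 3 (8.33%) at an unadjusted p under 0.05, beside 7.25% of all genes. These were Cd83, Cd52 and Tlr2, all with estimates below 0, as were 1017 of the 1526 such genes over the whole table. They had log2 fold changes of -1.53, -1.31 and -1.81 and adjusted p-values of 0.604, 0.616 and 0.664 (edgeR). Cd52, a small surface glycoprotein gene of leukocytes, ranged from 3.65 to 5.04 CPM in control and from 0.591 to 3.37 CPM with 2-DG, so that the groups did not overlap, as for 1 of 36 genes of the list (2.78%) and 2.93% of all genes. Tlr2, a receptor gene for bacterial lipoproteins, was highest in control replicates 4 and 5 at 52 and 60.8 CPM. Itgax had an estimate of 1.99 (adjusted p = 0.689, edgeR), with its highest level, 3.02 CPM, in 2-DG replicate 3. Some genes of this list were far above the members in level, such as Ctsb and Ctsd (control means 859 and 464 CPM). Apoe (control mean 166 CPM) was also among the Muller glia markers. Which cells these transcripts came from was not tested, so the counts are not particular to microglia.

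A group of 5 cytokine and effector genes, chosen after their values were known, was high in other libraries than C1q. Tnf, Il1b, Ccl3, Ccl4 and Nos2 together reached 296 and 406 CPM in control replicates 4 and 5 and 431 CPM in 2-DG replicate 4, against 28.7 to 51.5 CPM in the other 6 libraries. Summed C1q was 2.13 and 2.07 CPM in control replicates 4 and 5, the lowest of all, and 7.29 CPM in 2-DG replicate 4. Control replicate 2 and 2-DG replicate 2, with low cytokine genes (36.2 and 43.9 CPM), had low C1q as well (4.15 and 5.79 CPM), and the relation was not tested. Ccl3, a chemokine gene of activated microglia, was at 135, 206 and 232 CPM in these 3 libraries and at 11.5 to 26.2 CPM elsewhere. Tmem119 was high in control replicates 4 and 5 but had its lowest level, 0.343 CPM, in 2-DG replicate 4. The vessel gene Cdh5 was at 474, 861 and 1350 CPM in the same 3 libraries and at most 280 CPM elsewhere. Cldn5 was at 209, 459 and 327 CPM there and at most 97.6 CPM elsewhere. Pecam1 was at 165, 330 and 658 CPM, but also at 282 CPM in 2-DG replicate 3, and Esam overlapped likewise. The other vessel markers, Kdr, Pdgfrb, Rgs5 and Kcnj8, did not set these libraries apart. The part of the cytokine or vessel genes in the levels of the members was not tested.

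**Figure D5:**
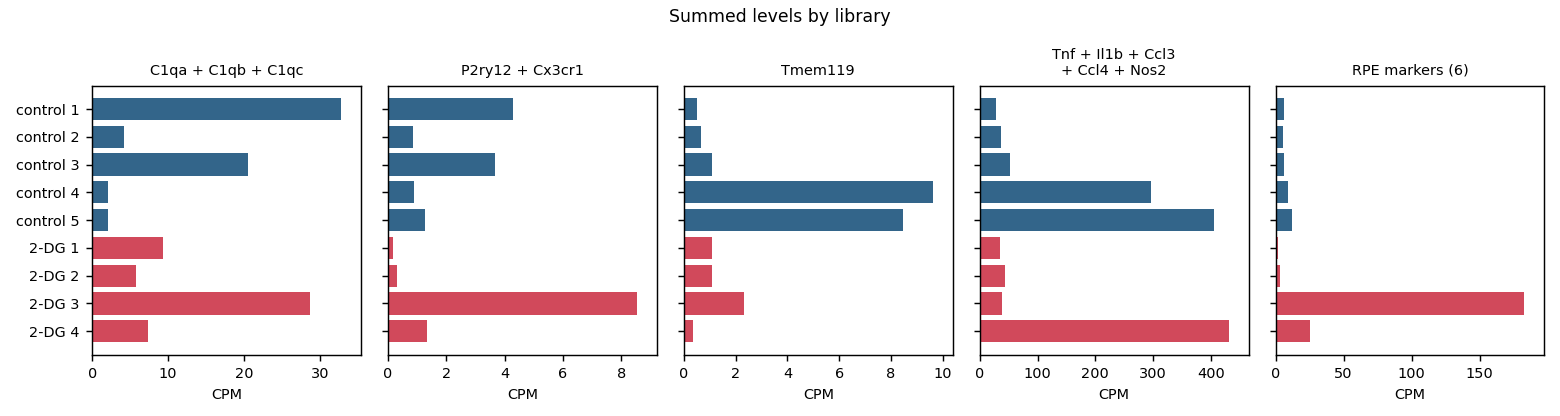
Summed CPM (x axes, linear, starting at 0, a separate scale per panel) in each library, control in blue and 2-DG in red, for the C1q genes, P2ry12 with Cx3cr1, Tmem119, 5 cytokine and effector genes, and 6 RPE markers. C1q is lowest in control replicates 4 and 5, where Tmem119 and the cytokine genes are high, and the RPE markers reach 183 CPM in 2-DG replicate 3.

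In the rest of the complement system, 39 of 52 genes were tested, 19 with estimates above and 20 below 0, and the median log2 fold change was -0.02. None passed the adjusted threshold, and 2 (5.13%) had an unadjusted p under 0.05, beside 7.25% of all genes. Calr encodes calreticulin, an endoplasmic reticulum chaperone that can also act as a receptor for C1q at the cell surface. Calr ranged from 212 to 420 CPM in control and from 472 to 1030 CPM with 2-DG, higher in 4 of 4 with no overlap (log2 fold change 1.31 ± 0.30, SE, adjusted p = 0.51, edgeR). It was the 1 gene of 39 without overlap (2.56%, beside 2.93% of all genes). Itgb2, the shared chain of the complement receptors CR3 and CR4, was estimated at -1.02 ± 0.45 on the log2 scale (SE, adjusted p = 0.689, edgeR). Cd55, a regulator that speeds the decay of C3 convertases, at 0.82 (adjusted p = 0.741, edgeR). C3, the central component, was not among the 4 smallest p-values of the list and is given for its place downstream of C1q. It was at 140, 5.51, 151, 303 and 138 CPM in control replicates 1 to 5 and 58.1, 117, 34.4 and 44.2 CPM in 2-DG replicates 1 to 4.

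Ligands and signalling partners of the members gave 20 tested genes of 21, 13 with estimates above 0, and 0 at an unadjusted p under 0.05. The smallest p-values belonged to Adam10, a sheddase of Trem2 and fractalkine (log2 fold change 0.51, adjusted p = 0.709, edgeR), Tgfbr2 (0.97, adjusted p = 0.73), Csf1 (-1.32, adjusted p = 0.775) and Tgfbr1 (0.44, adjusted p = 0.775). Csf1 was at 647 and 634 CPM in control replicates 4 and 5 and 348 CPM in 2-DG replicate 4, the libraries with high cytokine genes, and at 28.2 to 239 CPM in the others. Among border macrophage genes, Ms4a7 alone had an unadjusted p under 0.05 (1 of 12 tested, 8.33%, beside 7.25% of all genes). Its levels were 0.485 to 1.22 CPM in control and 1.59 to 1.96 CPM with 2-DG, without overlap, as for 2.93% of all genes (log2 fold change 1.28 ± 0.40, SE, adjusted p = 0.538, edgeR).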

How the data were processed

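RNA-seq of 5 control and 4 2-DG retinal explants was analysed. The authors deposited estimated counts per gene and per transcript, not scaled between libraries. The submitters' processing notes name kallisto and GRCm38, and the version is not given in the sources used here. The authors also deposited a signal table of scaled CPM for 12568 genes, of which C1qb was the only member and which served as an alternative, and a table of log2 fold change, mean log2 CPM, F, p-value and adjusted p-value, which was not used. All columns were assigned by their names, and 0 remained without a sample.

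Counts were rounded, filtered by filterByExpr, scaled by TMM and tested with edgeR 4.0.16 in R 4.3.3 (glmQLFit, legacy=TRUE, robust=FALSE) on all 9 libraries without covariates, and Benjamini-Hochberg adjustment covered 21049 genes. The SE is the absolute log2 fold change divided by the square root of F. The script was tested on simulated counts. Log2 CPM for correlations used a prior count of 2. Libraries held 11318087 to 51802230 counts. The reads were not collapsed by molecular identifiers, so intervals and floors cover counting error only. The kit marks the strand, but the strand setting used in counting is not given in the sources used here, so overlapping genes on opposite strands may share reads.

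Gene coordinates and exon lengths are from GENCODE vM21 (GRCm38). The members and lists were chosen with earlier results of these data known. All members are named. From each further list, the tested genes with the 4 smallest p-values were eligible for naming (1 of them is not reported here), and other genes named beside them were picked after their values were seen. Alternatives were other scalings and filters, DESeq2 1.42.0, limma 3.58.1 (voom, with and without sample quality weights), 2 surrogate variables from sva 3.50.0, a replicate block, the deposited CPM, other added CPM values and leaving out each library. Leaving out control replicate 2 with 2-DG replicate 3, and Tmem119 from the ratios, was added after seeing the data.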

Additional observations from a re-analysis of the deposited data

Results flagged for a closer look

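In 2-DG replicate 3, 3 members lay far from the other 2-DG libraries (a gap of more than 0.829 of the group's range to the nearest library). P2ry12 was at 2.41 CPM, with the next library at 0.0858 CPM. C1qa was at 9.75 CPM, with the next at 2.14 CPM, and C1qc at 6.63 CPM, with the next at 2.38 CPM. Of 24 groups of values examined, 3 met this rule, and chance alone marks about 1 in 20. The 3 values come from the same library, in which 6 RPE markers summed to 183 CPM, and the part of that in the values was not tested.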

How the results depend on the processing

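No member passed an adjusted p of 0.05 under any of the alternatives that could be fitted. Over all genes, 284 passed with DESeq2's Wald test, 1222 with limma-voom and sample quality weights, 693 with 2 surrogate variables, and 0 to 16 when each library was left out in turn. The smallest adjusted p-values of members were 0.162 (Trem2) and 0.166 (P2ry12), both with quality weights. Of 196 refitted fold changes, 36 turned sign, and the cause was not tested. With libraries left out (each one, and control replicate 2 with 2-DG replicate 3), log2 fold changes ranged from -2.77 to 1.40 for P2ry12, -2.56 to -1.16 for Tmem119, -1.85 to 0.60 for Cx3cr1, -0.70 to 0.45 for Csf1r, -0.30 to 1.05 for Aif1, 0.24 to 0.87 for Trem2, -0.01 to 0.58 for Tyrobp, -1.57 to 0.61 for C1qa, -0.64 to 0.88 for C1qb and -0.72 to 1.14 for C1qc. Each lowest value was without both libraries, except for Trem2 (without control replicate 4). Limma-voom gave -0.78 for P2ry12, -0.38 for Cx3cr1, 0.62 for C1qa and 1.19 for C1qc, and with quality weights -2.02, -1.71, 0.09 and 1.24, and -0.43 for Csf1r and 1.39 for Trem2 (0.51 by edgeR). C1qa was 0.09 with 2 surrogate variables.

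Same-numbered libraries did not deviate together throughout (r = 0.451, -0.155, 0.102 and 0.205 for numbers 1 to 4), so the numbers were not taken as pairs. With a replicate block 0 genes passed, and P2ry12, Cx3cr1, Csf1r and Tmem119 were at -0.59, -0.63, -0.30 and -0.07. The differences in the log2 ratios moved by less than the SD pooled over both groups, though for C1q by more than the SD of the 2-DG libraries alone (0.46), from -1.49 to between -1.99 and -1 (activation) and between -2.06 and -0.88 (C1q) when each library was left out. P2ry12 and Aif1 did not pass the filter without control replicate 1 or 3, nor P2ry12 without control replicate 5. The ratios and the count of members were not run on the deposited CPM, which held 1 member. P2ry12, Aif1 and Cx3cr1 held the 5 values under the counting floor.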
